A study of Mus musculus with 6 samples.

Results

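The genes described here are 31 that repair the DNA lesions cisplatin makes, of 30438 gene symbols in the deposited count table: 12 of nucleotide excision repair, 11 of Fanconi crosslink repair, 2 of homologous recombination, 4 translesion polymerases or their partners and 2 of mismatch repair. They were chosen by symbol from a fixed list. All 31 were in the table, and all 31 passed the filter on low counts. They were read in HEI-OC1, a conditionally immortalised line from the mouse organ of Corti that is used to study hair cell toxicity. The 2 groups of 3 libraries were unedited HEI-OC1 with the genotype WT, called the control, and Nrf2 KO HEI-OC1 with the genotype Nrf2 knockout. Nfe2l2 encodes Nrf2, a transcription factor that drives antioxidant genes. Both groups grew in DMEM with 10% FBS and penicillin-streptomycin at 33 °C and 10% CO2, and the labels record no cisplatin. The submitters asked which genes bear on a greater cisplatin resistance of the knockout cells. The labels give no guide, edit or number of clones, and do not say whether replicates came from separate cultures. The p-values therefore reflect only the spread among these samples, and that spread may be technical.

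Cisplatin joins neighbouring purines within a DNA strand and can also join the 2 strands to each other. Nucleotide excision repair finds the first kind, opens the helix and cuts out a short patch. The Fanconi proteins unhook the second kind at stalled forks and hand the break to recombination and to polymerases that copy past damage. Mismatch repair proteins bind cisplatin adducts too, and their loss is a known route to cisplatin tolerance in cultured cells.

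Libraries held 29130007 to 51285343 counts. Nfe2l2 itself stood at 74.2, 126.5 and 96.7 CPM (counts scaled to a common library size with TMM factors) in the control, and at 396, 236 and 204.5 CPM where the label says Nrf2 KO (log2 fold change 1.49, SE 0.33, edgeR adjusted p = 0.0456). Every Nrf2 KO library lay above every control. The call held with DESeq2 (adjusted p = 0.000371) and limma-voom (0.036). In edgeR it held with the replicate number as a block (0.0449) and without Nrf2 KO replicate 1 (0.0126). It was lost in edgeR with upper-quartile scaling (0.0526), with library size alone (0.0593) and without any 1 of the other libraries (up to 0.202). Without both replicate 1 libraries the log2 fold change was 0.98, and edgeR called it (adjusted p = 0.00105). The direction goes against the label, so each direction below is the one between libraries labelled Nrf2 KO and control. Whole-gene counts do not tell whether an edited transcript makes protein. The labels name the cell type as cochlear stem cell. Sox2, a defining gene of cochlear progenitors, had 0 counts in all 6 libraries, as had the hair cell genes Atoh1 and Slc26a5. Of 13 hair cell markers in the table, 5 were at 0 throughout. Sox2 was listed among 17 supporting cell markers, of which 3 (Sox2, Sox10 and Ngfr) were at 0 throughout and the rest had counts. Summed levels ran from 33.4 to 45.5 CPM in control and 62.7 to 76.5 CPM in Nrf2 KO libraries for the hair cell markers, from 526 to 615 and 676 to 908 CPM for the 17 supporting cell markers, from 6960 to 8820 and 8760 to 12600 CPM for the 12 fibroblast markers, and from 3.35 to 6.53 and 3.24 to 14.9 CPM for the 8 leukocyte markers. Of the tested markers, 1 of 2 hair cell, 3 of 10 supporting cell, 5 of 10 fibroblast and 0 of 1 leukocyte markers were called higher. In each list 0 were called lower. Over all 14618 tested genes edgeR called 4.83% higher and 3.45% lower. The part of these markers in the results below was not tested. In such bulk samples, fewer cells of a type and less RNA per cell cannot be told apart. Nrf2 KO replicate 1 stood apart from the other libraries, and values without it are given beside the calls it changes.

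Of the 31 repair genes, 2 fell and 0 rose with Nrf2 KO at an adjusted p under 0.05, by the quasi-likelihood test of edgeR adjusted over all genes after Benjamini and Hochberg. Pms2, the endonuclease subunit of mismatch repair, fell to 0.460 of its control level, and Fancf, an adaptor of the Fanconi core complex, to 0.552. Ercc3, a DNA helicase that opens the helix around a lesion, was 1.74-fold higher with no overlap between the groups and an adjusted p of 0.0521. Across all 14618 tested genes 4.83% were called higher and 3.45% lower, and 2 calls among 31 are read against those shares. At an unadjusted p under 0.05, 1 repair gene was higher and 3 were lower, where 13.4% and 11.6% of all genes were. DESeq2 called 1 higher and 3 lower (10.9% and 9.02% of all genes), and limma-voom 1 and 2 (5.14% and 4.12%). The median log2 fold change of the 31 was -0.11, against 0.04 over all genes, with 12 positive and 19 negative values. In CPM, 2 members were higher and 3 lower with no overlap between the groups, where 17.1% of all genes were higher and 17.1% lower in that way.

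Because their change passed the test, the promoters of Pms2 and Fancf are shown, from 250 bases before to 50 bases after the start, as RefSeq places it on mouse build GRCm38.p6. Pms2 lies at chr5:143909751-143910050 on the plus strand and Fancf at chr7:51862218-51862517 on the minus strand. Each is written 5′ to 3′ along its gene. Capitals mark matches on either strand to CCAAT, to GGGCGG (the GC box) or to TGACNNNGC (a core of the antioxidant response element that NRF2 binds).
Pms2: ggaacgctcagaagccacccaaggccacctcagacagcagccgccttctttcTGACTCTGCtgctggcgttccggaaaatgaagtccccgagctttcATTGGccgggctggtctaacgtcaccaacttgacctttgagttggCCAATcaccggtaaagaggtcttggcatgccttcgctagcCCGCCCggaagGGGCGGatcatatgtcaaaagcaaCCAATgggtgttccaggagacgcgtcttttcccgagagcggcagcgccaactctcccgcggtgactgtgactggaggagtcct
Fancf: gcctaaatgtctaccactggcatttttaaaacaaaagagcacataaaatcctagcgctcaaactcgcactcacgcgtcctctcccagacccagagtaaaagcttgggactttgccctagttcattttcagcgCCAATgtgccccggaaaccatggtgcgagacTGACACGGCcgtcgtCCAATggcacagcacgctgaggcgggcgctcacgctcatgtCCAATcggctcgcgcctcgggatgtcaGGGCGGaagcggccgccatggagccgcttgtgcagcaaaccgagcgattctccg

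Each of the 2 windows held 3 CCAAT matches and 1 TGACNNNGC match, and Pms2 had 2 GGGCGG matches against 1 in Fancf. The table of promoters matched 26 of the 31 repair genes. Ddb2, Ercc3, Fancd2, Rev3l and Xpc were not matched. Among these 26, TGACNNNGC occurred in 5 (Brca2, Fancf, Fancl, Pms2 and Rev1; 19.2%, against 14% of 27025 genes), CCAAT in 16 (61.5% against 41.1%) and GGGCGG in 17 (65.4% against 38.2%). TTTCCCGC, an E2F site, was in Brca2, Fancg and Msh6 (11.5% against 1.24%), TTTGGCGC, another E2F site, in 0 (0.585% of all genes), and TTTGAA, the cell cycle homology region, in Ercc5 alone (3.85% against 20.2%). At least 3 CCAAT matches were found in 3 of the 26 windows, or 11.5%, against 3.88% of all genes. The repair windows were richer in G and C, at a median of 58.2% against 52.8%, which both GC box and E2F letters share. A match of letters shows no binding.

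Pms2 encodes the subunit that nicks DNA once a mismatch or adduct has been recognised. Control replicates 1, 2 and 3 held 104, 116 and 111.5 CPM of it, and the same replicates labelled Nrf2 KO held 61.3, 47.1 and 44.2 CPM. Every Nrf2 KO library lay below every control library, and the mean went from 110 ± 6.02 to 50.8 ± 9.17 CPM (SD, n = 3 each). On the log2 scale this was -1.12 (SE 0.17, 95% interval -1.53 to -0.71, edgeR adjusted p = 0.0145). Without Nrf2 KO replicate 1 it was -1.28 (adjusted p = 0.000779), and without any 1 of the other 5 libraries it lay between -1.16 and -1.03 with the call lost (adjusted p up to 0.0949). In the authors' deposited table of FPKM, a scale per transcript length with 1 value per group, Pms2 stood at 31.2 in the control and at 14.3 in Nrf2 KO.

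Msh6, the other mismatch repair gene of the 31, encodes a subunit of the complex that recognises mismatches. It was at 139, 170 and 156 CPM in the control against 136, 148 and 138 CPM in Nrf2 KO. The groups overlapped (log2 fold change -0.14, SE 0.15, 95% interval -0.50 to 0.21, adjusted p = 0.628 by edgeR).

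**Figure D1:**
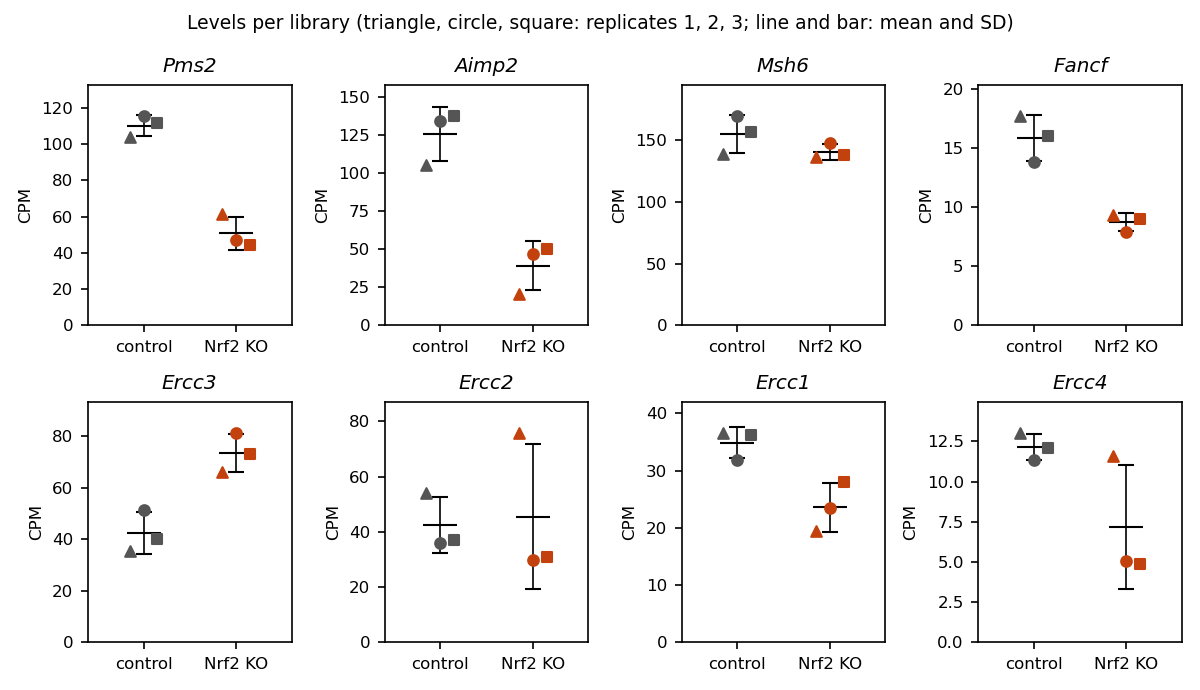
Level in CPM (y axis, from 0) of 8 genes in each library, by group; triangles, circles and squares are replicates 1, 2 and 3, and the line and bar give the mean and SD of 3 libraries. Pms2, Aimp2, Fancf and Ercc1 lie lower and Ercc3 higher in every Nrf2 KO library than in every control library, while the groups overlap for Msh6, Ercc2 and Ercc4.

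The genes beside Pms2 were lower too. Aimp2, which encodes a scaffold protein of the aminoacyl-tRNA synthetase complex, starts 117 bases from Pms2 on the opposite strand in GENCODE M21. It went from 106, 134 and 138 CPM in the control to 20.6, 47.0 and 50.04 CPM in Nrf2 KO (log2 fold change -1.68, SE 0.35, adjusted p = 0.0392 by edgeR). As for Pms2, the groups did not overlap, the call held without Nrf2 KO replicate 1 (adjusted p = 0.00178), and it was lost without any 1 of the others (up to 0.168). Gene order used only tested genes whose symbol matched a protein-coding gene of GENCODE M21, and other tested genes were skipped. Along the mouse chromosome, 29 genes so placed, in a row from Wipi2 to Trrap with Pms2 among them, had negative fold changes. Of these 29, 11 were called lower and 19 did not overlap between the groups, with a median log2 fold change of -1.03. Over all tested genes, which have either sign, 3.45% were called lower and 17.1% were lower without overlap. The run was extended from Pms2 while the sign stayed negative, so its counts are not comparable with those shares. Counting the 5 placed genes on each side, the neighbours of Pms2 had a median of -1.05, and 10 of 10 were negative. Relative to the control mean, the median of these 10 on the log2 scale was 0.10, -0.02 and -0.05 in control replicates 1, 2 and 3 and -1.04, -1.22 and -1.28 in Nrf2 KO. Of 11028 tested genes that could be placed, 0.281% had neighbours with a median as low or lower. Windows of nearby genes share members, here and for the like shares below, so these are not shares of separate stretches. DNA copy number was not measured in these libraries.

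Placed in gene order in the same way, the other repair genes had neighbour medians from -0.54 to 0.74. The highest was that of Ercc3, where 0 of 10 neighbours were negative and 7 did not overlap between the groups. A run of 21 genes from Elp2 to Apc with Ercc3 among them had positive fold changes, with a median of 0.70 on the log2 scale. Of these 21, 8 were called higher and 17 did not overlap between the groups. Over all tested genes, of either sign, 4.83% were called higher and 17.1% were higher without overlap. Both runs were bounded by sign and include Pms2 or Ercc3 itself. Their medians and counts therefore describe the chosen genes only and cannot be weighed against shares of all genes. The median of the 10 neighbours of Ercc3 was -0.13, 0.12 and 0.01 in control libraries and 0.52, 0.91 and 0.83 in Nrf2 KO libraries. At 98.4% of all placed genes the neighbour median was as low as that of Ercc3 or lower. The lowest after Pms2 were those of Ercc4 (-0.54, with 2.01% of genes as low) and Ercc2 (-0.50, with 2.53%), each with 6 of 10 neighbours lower without overlap. The neighbours of Fancf and Ercc1 had medians of -0.07 and -0.06, with 1 and 2 of 10 lower without overlap. Without Nrf2 KO replicate 1 the median beside Ercc1 was -0.42. Ercc1 and Ercc2 lie 3 places apart, so their windows share genes and are not separate stretches. Ercc1 is itself 1 of the 6 lower neighbours of Ercc2. The genes and windows for this comparison were chosen after the fold changes had been seen. Positions are those of the mouse annotation, and the build behind the counts is not settled by the sources used here.

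**Figure D2:**
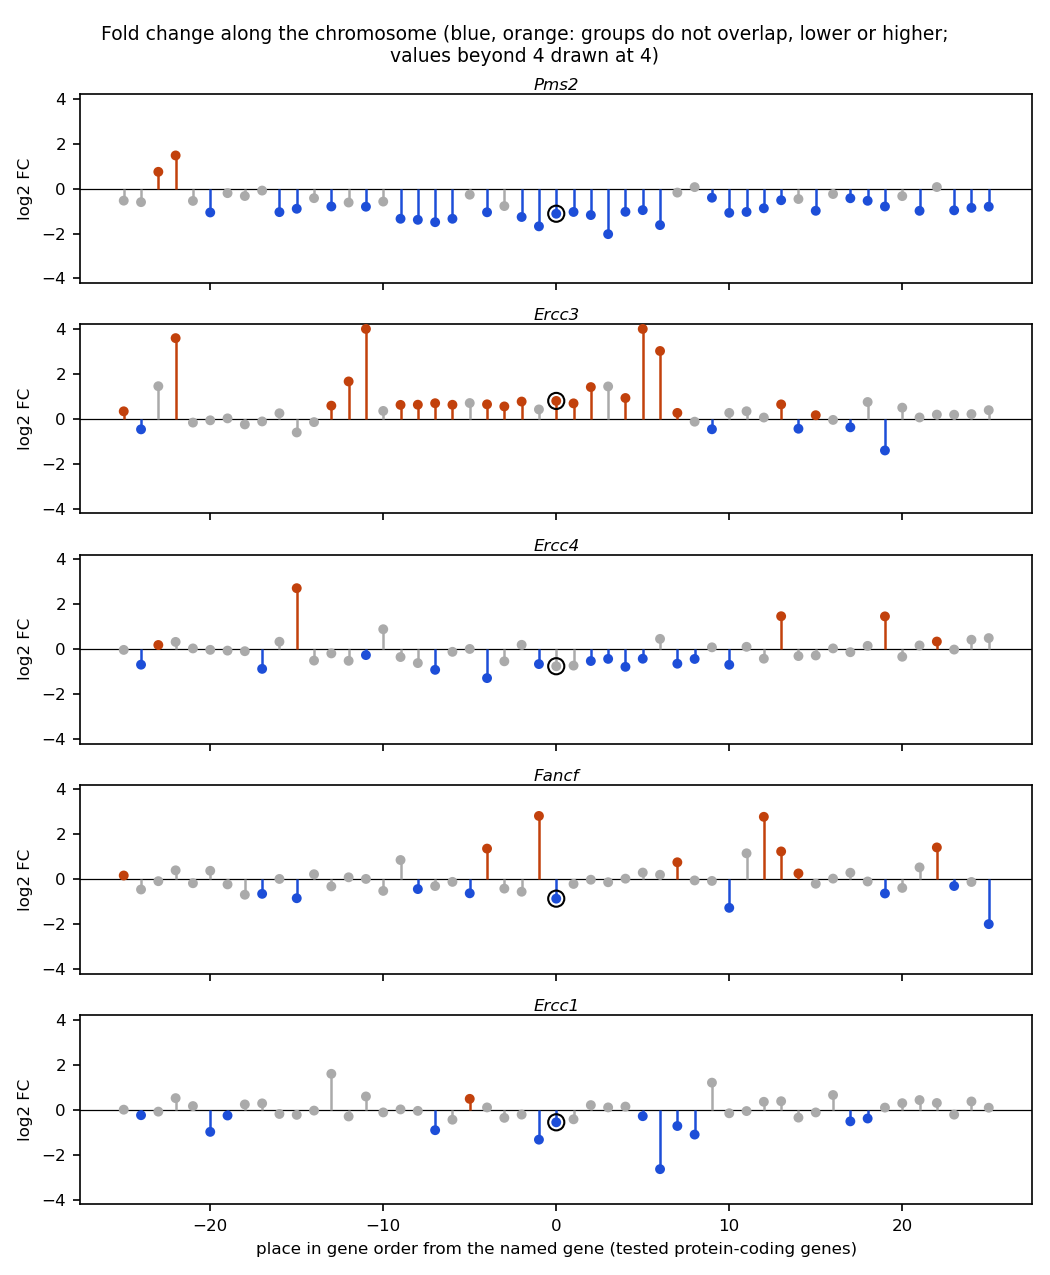
Log2 fold change, Nrf2 KO over control (y axis), of tested protein-coding genes by place in gene order from the circled gene (x axis); blue and orange points are genes whose groups do not overlap, lower and higher, and grey points overlap. Values beyond 4 are drawn at 4. Around Pms2 the 10 nearest genes are all negative (median -1.05), around Ercc3 all positive (0.74), and around Fancf (-0.07) and Ercc1 (-0.06) they fall on both sides of 0.

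Within the Fanconi pathway, 1 of 11 genes fell and 0 rose (0 higher and 1 lower at an unadjusted p under 0.05, and the same counts by DESeq2 and limma-voom), with a median log2 fold change of 0.10. Over all genes 4.83% were called higher and 3.45% lower, and 13.4% and 11.6% were so at the unadjusted threshold. DESeq2 called 10.9% higher and 9.02% lower, and limma-voom 5.14% and 4.12%. The core complex is a ubiquitin ligase built from FANCA, FANCB, FANCC, FANCE, FANCF, FANCG and the catalytic subunit FANCL. Fancf was at 17.7, 13.8 and 15.98 CPM in the control, and at 9.35, 7.88 and 8.97 CPM under the label Nrf2 KO. All 3 Nrf2 KO libraries lay below the lowest control. The means were 15.8 ± 1.95 and 8.73 ± 0.763 CPM, with a log2 fold change of -0.86 (SE 0.18, 95% interval -1.29 to -0.43, adjusted p = 0.0369 by edgeR). The call was lost with no filter on low counts (adjusted p = 0.0512) and without any 1 library other than Nrf2 KO replicate 1 (up to 0.196). Fancf starts 252 bases from Gas2, which lies on the other strand, and the 2 genes share 253 bases in the annotation. With no stated strand setting, reads from the shared stretch cannot be told apart. Gas2, which encodes a cytoskeleton-associated protein, was at 2.37 ± 0.203 against 2.07 ± 0.923 CPM.

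The other core subunits overlapped between the groups. Fance, which binds FANCD2 for the complex, was at 27.8, 19.0 and 23.6 CPM against 31.7, 15.9 and 16.1 CPM, with replicate 1 the highest of each group. The ratio of Fancf to Fance counts within a library, which no scaling between libraries affects, was 0.636, 0.727 and 0.678 in the control and 0.295, 0.495 and 0.557 in Nrf2 KO, with no overlap (exact permutation p = 0.1, two-sided, the smallest that 3 against 3 allows; 0.6 adjusted over 6 partner pairs). Fancl, the ligase subunit, was at 30.04 ± 1.344 and 33.5 ± 2.95 CPM (log2 fold change 0.16, 95% interval -0.18 to 0.50). Fanca, Fancb, Fancc and Fancg had log2 fold changes of -0.11, -0.03, 0.12 and -0.33, with adjusted p between 0.578 and 0.973 by edgeR. Fancm, the translocase that anchors the complex on DNA, was at 34.6, 49.0 and 40.0 CPM against 36.5, 50.5 and 45.2 CPM.

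Fancd2 and Fanci, the pair that the core complex ubiquitinates, were level with the control in 2 of 3 Nrf2 KO libraries. Fancd2 was at 80.5, 84.1 and 77.2 CPM in the control and 111, 87.7 and 78.7 CPM in Nrf2 KO. Fanci was at 107, 98.3 and 96.3 CPM against 160.5, 106 and 107 CPM, so Nrf2 KO replicate 1 was the highest library for both. Their log2 fold changes were 0.20 (95% interval -0.21 to 0.60) and 0.31 (-0.19 to 0.80), and 0.04 and 0.08 without that library. The ratio of Fancd2 to Fanci counts stayed between 0.690 and 0.856 in all 6 libraries. Slx4, the scaffold that gathers the nucleases which unhook a crosslink, was at 169, 92.0 and 110 CPM against 306, 83.6 and 82.8 CPM. Its fold change turned from 0.35 with all libraries to -0.57 without Nrf2 KO replicate 1, and neither value passed the test.

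Of the 12 nucleotide excision repair genes, 0 passed the test in either direction, with a median log2 fold change of -0.18. DESeq2 and an unadjusted p under 0.05 each gave 1 higher and 1 lower, and limma-voom gave 1 and 0. Over all genes the main edgeR test called 4.83% higher and 3.45% lower, DESeq2 10.9% and 9.02%, and limma-voom 5.14% and 4.12%. At the unadjusted threshold 13.4% of all genes were higher and 11.6% lower. Damage is first met by XPC, held stable by RAD23B, or by the DDB1 and DDB2 pair. Xpc was at 43.3, 34.2 and 34.7 CPM against 65.1, 31.7 and 29.6 CPM, and Rad23b at 344.5, 440 and 437.5 CPM against 169, 442 and 466 CPM. In each group replicate 1 was the highest for Xpc and the lowest for Rad23b. The ratio of Xpc to Rad23b counts was therefore 0.386 in Nrf2 KO replicate 1, against 0.0716 and 0.0636 in the other libraries of that group and 0.0777 to 0.126 in the control. Ddb1, the adaptor of a ubiquitin ligase with many other duties, was at 208, 477 and 336 CPM against 167.5, 508 and 409.5 CPM. Ddb2, the subunit that touches the lesion, had only 38, 45 and 51 counts in the control and 24, 51 and 27 in Nrf2 KO, and was the lowest of the 31 on the FPKM scale of the authors' deposited table (0.488 and 0.355). At that depth its 95% interval ran from -1.15 to 0.32 on the log2 scale. Ercc6 and Ercc8, which find lesions where RNA polymerase has stalled, had log2 fold changes of 0.48 and -0.18, the first of which was -0.09 without Nrf2 KO replicate 1.

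The 2 helicases of TFIIH that open the helix did not behave alike across the libraries. Ercc3 was at 35.4, 51.3 and 40.2 CPM in the control and 66.2, 81.2 and 73.1 CPM in Nrf2 KO. All Nrf2 KO libraries lay above the highest control, and the log2 fold change was 0.80 (SE 0.19, 95% interval 0.35 to 1.25, adjusted p = 0.0521 by edgeR). It passed with the replicate number as a block (adjusted p = 0.0152), with DESeq2 (0.00147), with limma-voom (0.0454) and without Nrf2 KO replicate 1 (0.0133). It did not pass with upper-quartile scaling (0.0517), with no filter on low counts (0.0772) or without any 1 of the other 5 libraries (0.0817 to 0.251). Ercc2, its partner helicase, was at 54.1, 36.0 and 37.3 CPM against 75.8, 29.96 and 30.9 CPM, with replicate 1 the highest of each group. The ratio of Ercc3 to Ercc2 counts was 0.655, 1.43 and 1.08 in the control and 0.873, 2.71 and 2.37 in Nrf2 KO, and the groups overlapped (exact permutation p = 0.3). Xpa, which checks the opened lesion, was at 8.95 ± 1.55 and 6.91 ± 2.98 CPM, with a log2 fold change of -0.38 (adjusted p = 0.562) that became -0.79 without Nrf2 KO replicate 1 (adjusted p = 0.0278, by edgeR).

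The nucleases that cut on either side of the lesion were lower in mean, without passing the test. Ercc1, the non-catalytic subunit of the nuclease that cuts 5′ of the lesion, was at 36.5, 31.8 and 36.3 CPM against 19.4, 23.5 and 28.0 CPM. The groups did not overlap, with a log2 fold change of -0.56 (SE 0.18, 95% interval -1 to -0.12, adjusted p = 0.117 by edgeR). DESeq2 called it (adjusted p = 0.0282), as did edgeR without Nrf2 KO replicate 1 (0.0442). Ercc4, the catalytic subunit that ERCC1 stabilises, was at 13.0, 11.4 and 12.1 CPM against 11.6, 5.09 and 4.86 CPM. Nrf2 KO replicates 2 and 3 lay below all controls and replicate 1 within them, so the log2 fold change of -0.76 (adjusted p = 0.274) became -1.29 without replicate 1 (adjusted p = 0.00221, by edgeR). The ratio of Ercc1 to Ercc4 counts was 2.81, 2.80 and 3.00 in the control and 1.67, 4.62 and 5.76 in Nrf2 KO, more widely spread in the second group. Ercc5, which cuts 3′ of the lesion, was at 15.4, 12.0 and 12.7 CPM against 18.6, 8.84 and 7.32 CPM. Its log2 fold change was -0.21 (95% interval -1.11 to 0.70, adjusted p = 0.799 by edgeR). It was -0.73 without Nrf2 KO replicate 1 (adjusted p = 0.0264 by edgeR) and 0.035 without Nrf2 KO replicate 3.

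Of the 2 recombination genes, 0 passed the test in either direction by edgeR, DESeq2 or limma-voom, with 0 at an unadjusted p under 0.05. The shares of all genes called higher and lower were 4.83% and 3.45% by edgeR, 10.9% and 9.02% by DESeq2. By limma-voom they were 5.14% and 4.12%, and at the unadjusted threshold 13.4% and 11.6%. Brca1, which prepares DNA ends, was at 65.2, 70.6 and 62.9 CPM against 53.4, 71.3 and 56.7 CPM (log2 fold change -0.13). Brca2, a mediator of strand invasion, was at 121, 109 and 111 CPM against 111.5, 77.4 and 74.8 CPM. Nrf2 KO replicates 2 and 3 lay below all controls, and the log2 fold change of -0.37 became -0.58 without replicate 1 (adjusted p = 0.308 and 0.0106 by edgeR).

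The translesion genes copy past adducts that have not been removed. By edgeR, DESeq2 or limma-voom 0 of 4 were called in either direction, with 0 at an unadjusted p under 0.05. Over all genes edgeR called 4.83% higher and 3.45% lower, DESeq2 10.9% and 9.02%, and limma-voom 5.14% and 4.12%. At the unadjusted threshold 13.4% were higher and 11.6% lower. Polh, the polymerase that bypasses the commonest cisplatin adduct, was at 32.0, 31.7 and 31.2 CPM against 32.9, 34.5 and 36.4 CPM. All Nrf2 KO libraries were above all controls, by a log2 fold change of 0.13 (95% interval -0.18 to 0.44). Rev1, the scaffold of the bypass polymerases, was at 112, 81.7 and 82.3 CPM against 126, 54.9 and 56.1 CPM, again with replicate 1 highest in each group (log2 fold change -0.22, and -0.74 without Nrf2 KO replicate 1, adjusted p = 0.0213 by edgeR). Rev3l, the catalytic subunit of polymerase zeta, and Polk, a bypass polymerase, had log2 fold changes of -0.04 and -0.03.

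**Figure D3:**
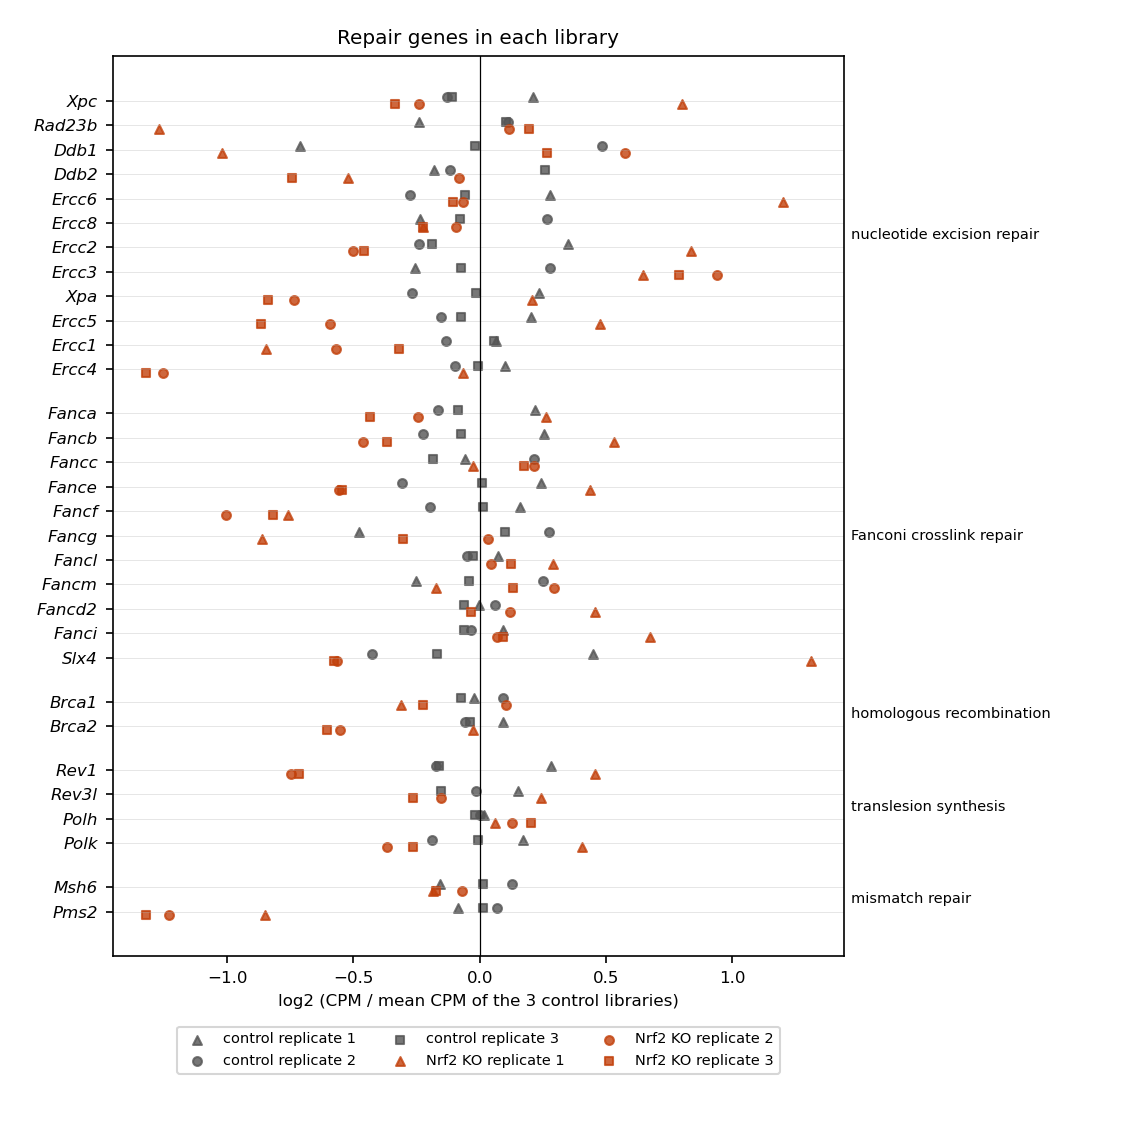
Level of each repair gene in each library as log2 of its CPM over the mean of the 3 control libraries (x axis), by pathway (y axis); grey symbols are control and orange are Nrf2 KO, with triangles, circles and squares for replicates 1, 2 and 3. Pms2 and Fancf lie to the left in all 3 Nrf2 KO libraries and Ercc3 to the right, while for Slx4, Rad23b and Ddb1 the triangle lies far from the other symbols.

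**Figure D4:**
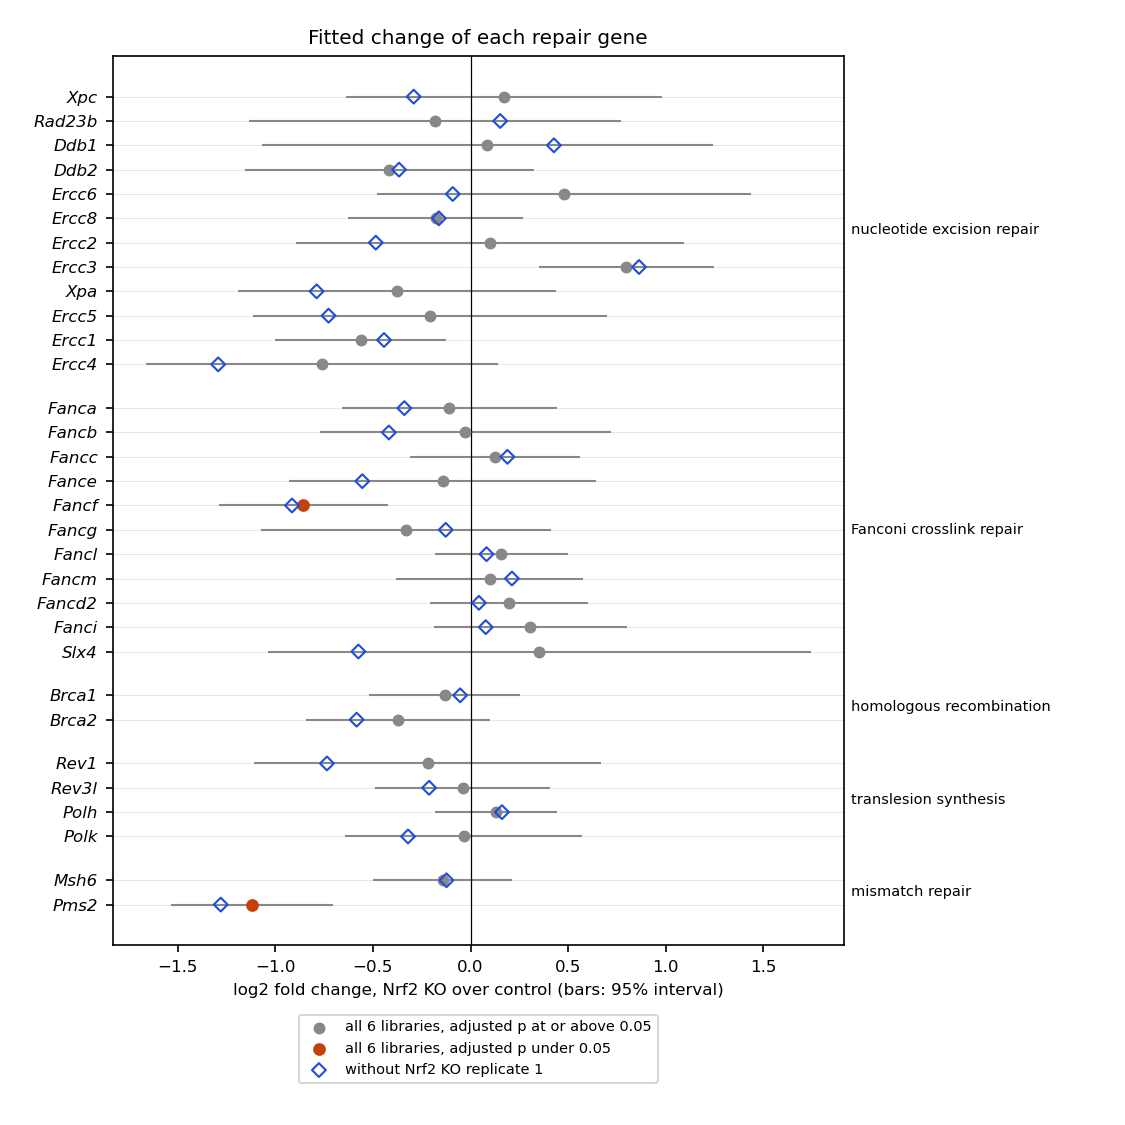
Fitted log2 fold change, Nrf2 KO over control, of each repair gene (x axis) with its 95% interval; orange points passed the adjusted threshold with all 6 libraries, grey points did not, and open diamonds are the values without Nrf2 KO replicate 1. Pms2 (-1.12) and Fancf (-0.86) are the only orange points, and the diamonds of Ercc4 (-1.29), Rev1 (-0.74) and Slx4 (-0.57) lie well left of their points.

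How many repair genes were called depended on replicate 1. With the replicate number as a block, 1 was higher and 2 were lower (10.4% and 7.92% of all genes). Without Nrf2 KO replicate 1, 1 was higher and 8 lower, where 15.6% of all genes were higher and 14.5% lower. The 8 were Pms2, Fancf, Ercc1, Ercc4, Ercc5, Xpa, Brca2 and Rev1. Without either replicate 1 library, Ercc2 and Fance joined them, for 10 lower against 1 higher (22.1% and 24.0% of all genes). Ercc3 was the higher member each time. Without any 1 of the other 5 libraries 0 members were called in either direction. Over all genes, those 5 fits called 139 to 271 higher and 57 to 110 lower, of 14865 to 15035 tested. With all 6 libraries the calls were 706 and 505 of 14618.

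In most repair genes replicate 1 differed from replicates 2 and 3 in the same sense in both groups. It was the highest library of its group for 17 members and the lowest for 6 in control and Nrf2 KO alike, or 74.2% of the 31, against 71.4% of all tested genes. In 3 members, or 9.68%, it lay on opposite sides, against 10.7% of all genes. Slx4 in replicate 1 was above the mean of the other replicates by 0.75 in the control and 1.88 in Nrf2 KO, in log2 CPM. Ddb1 was below by -0.95 and -1.44, and Rad23b by -0.35 and -1.43. Across the 31 genes these differences in the 2 groups had a Pearson's r of 0.889 and a Spearman's rho of 0.892, against 0.754 and 0.782 over all tested genes. The points share 6 libraries, and genes are not independent replicates. The size of the difference averaged 0.307 in the control and 0.698 in Nrf2 KO over the 31 genes. Pms2 (-0.13 and 0.43), Fancf (0.25 and 0.15) and Ercc3 (-0.36 and -0.22) lay under the average in Nrf2 KO, as did other members, and Ercc3 lay beyond it in the control.

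**Figure D5:**
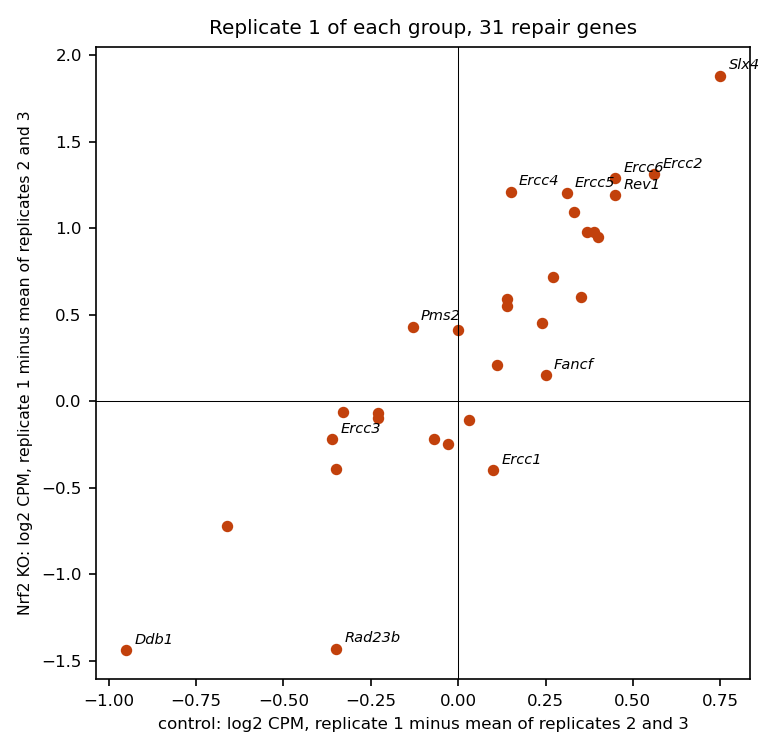
Difference between replicate 1 and the mean of replicates 2 and 3 in log2 CPM, in the control (x axis) and in Nrf2 KO (y axis), 1 point per repair gene. Points run from Ddb1 (-0.95, -1.44) to Slx4 (0.75, 1.88), most of them in the lower left or upper right.

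Beyond these 31, 68 other genes of the same pathways were all tested, and 0 were called in either direction by edgeR. At an unadjusted p under 0.05, 2 were higher and 6 lower. DESeq2 called 2 higher and 7 lower and limma-voom called 0. The replicate block gave edgeR 1 higher and 3 lower calls (10.4% and 7.92% of all genes). Leaving out Nrf2 KO replicate 1 gave 4 and 10 (15.6% and 14.5% of all genes). The shares of all genes, higher and lower, were 13.4% and 11.6% at the unadjusted threshold and 10.9% and 9.02% by DESeq2. By limma-voom they were 5.14% and 4.12%, and by the main edgeR test 4.83% and 3.45%. The median log2 fold change of the 68 was -0.04, with values from -0.99 to 0.51. The 2 most abundant were Gtf2h5, a small TFIIH subunit, at 315 ± 74.0 and 268 ± 25.7 CPM, and Usp1, the enzyme that removes ubiquitin from FANCD2, at 159 ± 45.9 and 180.5 ± 85.4 CPM. None of the 6 other mismatch repair genes was called by edgeR, DESeq2 or limma-voom, with 0 at an unadjusted p under 0.05.

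Many repair genes are transcribed as cells enter S phase, so 40 cell cycle genes were read beside them. EdgeR called 0 of these in either direction, with 4 higher and 4 lower at an unadjusted p under 0.05. DESeq2 called 3 and 3, and limma-voom 1 and 0. In edgeR the replicate block gave 3 and 3 (10.4% and 7.92% of all genes). Leaving out Nrf2 KO replicate 1 gave 6 and 4 (15.6% and 14.5% of all genes). At the unadjusted threshold 13.4% and 11.6% of all genes were higher and lower. By DESeq2 the shares were 10.9% and 9.02%, by limma-voom 5.14% and 4.12%, and by the main edgeR test 4.83% and 3.45%. At the unadjusted threshold the 4 lower genes were all of S phase, and the 4 higher all of G2 and mitosis. The median was -0.27 over 20 S phase genes, 15 of them negative. It was 0.12 over 20 genes of G2 and mitosis, 13 of them positive. Mki67, the proliferation marker, was at 957 ± 20.3 and 920 ± 37.2 CPM. Rrm2, a subunit of the enzyme that makes deoxynucleotides, was at 505, 907 and 766 CPM against 518, 1656 and 1662 CPM. Its log2 fold change of 0.82 (adjusted p = 0.367 by edgeR) was the highest of the 20 S phase genes. Without Nrf2 KO replicate 1 it was called higher (1.19, adjusted p = 0.0155 by edgeR).

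Set per transcript length in the authors' deposited FPKM table, the 31 genes spanned 0.488 (Ddb2) to 121 (Rad23b) in the control group. Ddb1 followed at 66.2, Pms2 at 31.2, Msh6 at 29.6 and Ercc1 at 26.9. In the Nrf2 KO column Pms2 stood at 14.3 and Ercc3 at 22.9, up from 13.3. These are group values with no spread, and because the gene models behind the table are not settled, the order between genes is only as good as the lengths used.

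In the mouse annotation, 10 of the 31 start within 1000 bases of a protein-coding gene on the opposite strand (32.3%, against 10.9% of 21924 protein-coding genes), and 14 overlap 1 on the other strand (45.2% against 16.5%). All 10 such neighbours were tested. Aimp2 was called lower and the other 9, among them Lsm3 beside Xpc and Nbr1 beside Brca1, were not called. Over all tested genes edgeR called 4.83% higher and 3.45% lower. The sign of the fold change was the same in both genes of 5 pairs. Reads of overlapping genes cannot be told apart where the counting does not use strand. Ercc1, for example, shares 511 bases with Cd3eap.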

How the data were processed

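Poly(A)-selected RNA of 6 HEI-OC1 libraries was analysed from 2 tables. The authors deposited raw counts per gene symbol, and a table of FPKM with 1 value per group. Named per the submitters' processing notes, without roles, are HISAT2, fastp, FastQC, DESeq2 1.34.0 and the build hg18. The counting tool, annotation and strand setting were not given in the sources used here. Among the symbols are 1202 with the prefix Olr and 650 with RGD, as used for rat genes, so which species' gene models were counted is not settled, and levels should be compared between groups for 1 gene rather than between genes.

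Counts were tested in R 4.3.3 with edgeR 4.0.16: filterByExpr (minimum count 10, minimum total 15; 14618 genes kept), TMM scaling, robust quasi-likelihood fit, group as the only term, two-sided, Benjamini-Hochberg over all genes. DESeq2 1.42.0 and limma-voom (limma 3.58.1), other scalings and filters, a replicate block and leaving out libraries were alternatives. The script was tested on simulated data. No library pair of a group differed by as little as sampling noise (chi-square per degree of freedom at least 12.2). Same-numbered libraries deviated together from their group means (r of 0.754, 0.696 and 0.310 for numbers 1, 2 and 3, each above 0.1). This was the ground for the replicate block, which pairs equal numbers and was run as an alternative only. The main test and the exact permutation tests do not pair libraries. The labels do not say what a number marks. Of 190 list symbols 189 were found. Genes named were all 31 members, Nfe2l2, and the 2 most abundant genes of each list with no call. Aimp2, Gas2 and the genes in the gene-order and partner comparisons were added after their values were seen. Results for some genes are not reported here. The members and lists were chosen with earlier results of these data known. Sequences come from RefSeq on GRCm38.p6 and gene order from GENCODE M21.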

Additional observations from a re-analysis of the deposited data

How the results depend on the processing

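Of the 31 repair genes, Pms2 kept its direction and call under every other scaling, filter, tool and the replicate block, and Fancf did so except with no filter on low counts, which left 1 lower repair gene. Both lost the call when any 1 library except Nrf2 KO replicate 1 was left out, with fewer samples in each such fit. The count of repair genes called higher went from 0 to 1 with DESeq2 size factors in edgeR, library size alone, a filter of 1 CPM, DESeq2, limma-voom, the replicate block and without both replicate 1 libraries, each time for Ercc3. Without both replicate 1 libraries 10 were lower. With 1 library left out the counts ran from 0 to 1 higher and 0 to 8 lower.

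The other repair genes had 2 higher and 7 lower calls with DESeq2, 1 and 3 with the replicate block, 12 and 17 without both replicate 1 libraries, and 0 to 4 and 0 to 10 with 1 library left out. The cell cycle genes had 1 higher with DESeq2 size factors in edgeR, with a filter of 1 CPM and with limma-voom, 3 higher and 3 lower with DESeq2 and with the replicate block, 9 and 9 without both replicate 1 libraries, and 0 to 6 and 0 to 4 with 1 library left out. Over all genes, calls went from 706 higher and 505 lower to 1598 and 1318 with DESeq2, 1520 and 1158 with the replicate block, 3540 and 3253 without both replicate 1 libraries, and 139 to 2323 and 57 to 2162 with 1 library left out. The replicate block changed no call among the 31 repair genes other than that of Ercc3.

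The direction of some genes that were not called turned, and the cause was not tested. Without both replicate 1 libraries the log2 fold change was -0.16 for Xpc, 0.054 for Rad23b, -0.26 for Ercc2 (called there) and -0.27 for Slx4. Limma-voom gave -0.001 for Ddb1 and -0.031 for Ercc2, and the replicate block -0.016 for Ercc2. With 1 library left out the log2 fold change ran from -0.29 to 0.37 for Xpc, -0.42 to 0.15 for Rad23b, -0.24 to 0.43 for Ddb1, -0.091 to 0.70 for Ercc6, -0.48 to 0.33 for Ercc2 and -0.73 to 0.035 for Ercc5. It ran from -0.34 to 0.031 for Fanca, -0.42 to 0.15 for Fancb, -0.55 to 0.026 for Fance, -0.015 to 0.24 for Fancm and -0.57 to 0.66 for Slx4. It ran from -0.21 to 0.057 for Rev3l, -0.32 to 0.11 for Polk, -0.038 to 0.53 for Usp1, and -0.61 to 0.045 for Gas2. The log2 difference in count ratio ran from -0.047 to 0.85 for Ercc1 to Ercc4 and -0.44 to 0.86 for Xpc to Rad23b (-0.22 without both replicate 1 libraries). The median of the 10 genes beside Fancf ran from -0.13 to 0.075, and those beside Pms2, Ercc3 and Ercc4 kept their sign in every fit. Partner ratios and neighbour medians were added after the data had been seen. Ddb2 had 24 to 51 counts a library, which limits its precision.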
